A study of Mus musculus with 15 samples.

Results

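Peaks of H3K4me3, YY1 and SMC3 were examined at 10 mouse genes that set entry into and exit from G1 phase. The genes were the Cip/Kip inhibitors Cdkn1a, Cdkn1b and Cdkn1c, the INK4 inhibitors Cdkn2c and Cdkn2d, the D cyclins Ccnd1, Ccnd2 and Ccnd3, and their kinase partners Cdk4 and Cdk6. They were listed by name, and every called peak that touched a gene's span or the 10 kb on either side of it was counted, separately for each target and library. They are 10 of the 21883 protein-coding genes to which the same rule was applied. The cells were HPC-7, an early haematopoietic line made from mouse embryonic stem cells. They were profiled by CUT&Tag, in which an antibody tethers a transposase that cuts and tags the DNA beside its target.

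One group, shYY1 cells profiled for SMC3, carried an shRNA against YY1, and the descriptions of its libraries give the construct as shYY1-2. Control cells, named WT in the titles but shLUC (an shRNA to luciferase, by its name) in the descriptions, were profiled for SMC3, YY1 and H3K4me3. All 4 groups comprised 3 biological replicates per the labels, made from about 150000 cells a reaction. The 3 IgG libraries of control cells were not analysed here, so specific binding cannot be told apart from background cutting of open chromatin. Nor was YY1 in shYY1 cells analysed here, and how far YY1 was depleted is therefore unknown. The descriptions name Abcam only for SMC3 replicate 1 of each arm.

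D cyclins bind Cdk4 or Cdk6 and phosphorylate the retinoblastoma protein, which releases E2F factors and lets a cell enter S phase. INK4 proteins bind Cdk4 and Cdk6 and keep the cyclin away, whereas Cip/Kip proteins bind cyclin and kinase complexes and chiefly restrain Cdk2. In blood stem cells, Cdkn1c and Cdkn1b are known for their part in quiescence, and Cdk6 for the speed at which a quiescent cell re-enters the cycle. H3K4me3 marks promoters in use or poised for use, YY1 is a zinc-finger transcription factor, and SMC3 is a core subunit of cohesin, the ring that holds loops of DNA and sister chromatids.

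The deposited lists held 2631 to 3213 SMC3 peaks in shYY1 cells and 2061 to 4595 in control cells. They held 3750 to 10699 peaks for YY1 and 16763 to 17895 for H3K4me3. Control SMC3 replicate 3 and YY1 replicate 3 had the shortest lists of their groups. No peak height or read count came with the lists, so depth is unknown, and a missing peak may reflect depth as well as occupancy. Of the haematopoietic progenitor genes chosen as markers, 14 of 14 had H3K4me3 peaks in their windows in at least 2 of 3 libraries. Peaks in at least 2 of 3 libraries are called reproducible from here on, and 57.9% of all genes had them for H3K4me3. Such peaks lay in the windows of 1 of 5 pluripotency genes (Pou5f1) and 2 of 8 genes of other tissues (Cdx2 and Sftpc). Marker genes of mature lymphoid cells had such peaks in 2 of 4 cases, and those of mature erythroid and myeloid cells in 2 of 4. Both counts are near the share of all genes. A window can also hold peaks of a neighbouring gene.

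The 300 bp around an annotated start, from 250 bp upstream to 50 bp downstream, are shown for 4 members, because the SMC3 peaks of these genes lay on the promoter in some and away from it in others. Sequences are from RefSeq for GRCm38.p6, the assembly of mm10, and run 5′ to 3′ on the strand of the gene. Capitals mark exact matches, on either strand, to any of 8 words, which were the YY1 word AANATGGCG, its core ATGGCG, the E2F words TTTCCCGC and TTTGGCGC, the GC box GGGCGG, the E box CACGTG, the cyclic AMP response element TGACGTCA and the cell cycle homology region TTTGAA. Every match to the YY1 word also matches its core. The Cdk4 promoter is chr10:127063285-127063584 (plus strand), that of Cdkn2d is chr9:21291160-21291459 (minus strand), that of Cdkn1b is chr6:134920151-134920450 (plus strand), and the inner of the Cdkn1a promoters is chr17:29093519-29093818 (plus strand).
Cdk4: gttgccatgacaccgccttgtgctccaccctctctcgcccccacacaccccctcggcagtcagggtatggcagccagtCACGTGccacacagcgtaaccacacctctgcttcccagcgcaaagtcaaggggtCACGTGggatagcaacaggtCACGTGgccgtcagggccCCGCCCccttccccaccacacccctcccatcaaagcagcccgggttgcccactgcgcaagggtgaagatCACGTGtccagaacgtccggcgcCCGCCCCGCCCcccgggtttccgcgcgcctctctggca
Cdkn2d: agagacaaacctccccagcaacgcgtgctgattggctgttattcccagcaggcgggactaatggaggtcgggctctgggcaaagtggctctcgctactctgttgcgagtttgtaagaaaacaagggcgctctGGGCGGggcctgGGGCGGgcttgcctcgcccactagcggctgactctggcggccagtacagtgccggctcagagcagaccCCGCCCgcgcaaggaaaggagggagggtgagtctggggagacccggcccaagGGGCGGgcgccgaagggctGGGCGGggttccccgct
Cdkn1b: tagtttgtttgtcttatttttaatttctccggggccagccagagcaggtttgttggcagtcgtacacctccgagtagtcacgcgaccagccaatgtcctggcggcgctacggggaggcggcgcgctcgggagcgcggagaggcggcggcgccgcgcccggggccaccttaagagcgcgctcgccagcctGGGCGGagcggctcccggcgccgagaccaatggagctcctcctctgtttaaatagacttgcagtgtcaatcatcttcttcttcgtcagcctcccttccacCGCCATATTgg
Cdkn1a: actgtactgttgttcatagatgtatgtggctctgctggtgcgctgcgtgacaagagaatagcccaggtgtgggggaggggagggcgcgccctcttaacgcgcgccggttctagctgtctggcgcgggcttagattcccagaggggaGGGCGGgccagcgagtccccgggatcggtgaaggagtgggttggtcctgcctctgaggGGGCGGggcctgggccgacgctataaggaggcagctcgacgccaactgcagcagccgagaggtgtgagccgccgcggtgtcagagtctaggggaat

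The Cdk4 promoter held 4 E boxes, at -172, -118, -98 and -11 bp from the start, and 3 GC boxes. At least 1 E box was found in 7.84% of the 21262 annotated promoters, and at least 4 in 5 promoters (0.0235%). The Cdkn2d promoter held 5 GC boxes, a number reached by 3.75% of promoters, while 46.2% had at least 1. The Cdkn1b promoter was the member promoter with the YY1 word, on the minus strand at +39 bp. That word was present in 3.12% of all promoters, in 8.77% of the 5520 promoters with a reproducible YY1 peak and in 1.14% of the 15742 others. The Cdkn1a sequence held 2 GC boxes, at -104 and -46 bp. The YY1 core stood in 10.9% of promoters, the E2F words in 1.41% and 0.635%, the response element in 2.23% and TTTGAA in 16.0%. A match of this kind describes the letters and does not show a bound site. Promoter sequences were matched for 7 of the 10 genes, and Ccnd1, Ccnd2 and Cdkn1c are named only.

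H3K4me3 marked 10 of the 10 genes in at least 2 of 3 libraries, where 57.9% of all genes were marked. YY1 peaks met the same rule at 9 genes (40.5% of all genes), SMC3 peaks in shYY1 cells at 7 (16.6%) and SMC3 peaks in control cells at 8 (21.6%). The rule counts libraries per window, so the peaks need not share a site. At Cdkn2c and Cdk6, the SMC3 peaks of shYY1 cells came from different regions, each called in 1 shYY1 library. Since all 10 carried H3K4me3, the closer background is the 12672 genes with that mark, of which 69.5% met the rule for YY1, 28.4% for SMC3 in shYY1 cells and 37.1% for SMC3 in control cells. Cdkn1a, Cdkn2d, Ccnd3 and Cdk4 had an SMC3 peak in all 6 SMC3 libraries, as did 8.68% of all genes, with or without H3K4me3. The windows differ in length, from 22721 bp at Cdkn1c to 210005 bp at Cdk6, and several, among them those of Cdkn1b, Cdkn2c, Cdkn2d, Ccnd1, Ccnd3, Cdk4 and Cdk6, also hold other annotated genes. A narrower count uses the 10 annotated promoters of the 7 matched genes. H3K4me3 lay on 9 of these promoters (45.3% of all promoters), YY1 on 7 (26.0%), SMC3 in shYY1 cells on 2 (8.92%) and SMC3 in control cells on 3 (11.8%). The YY1 and SMC3 shares of promoters with H3K4me3 were not counted, so these backgrounds include unmarked promoters.

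**Figure D1:**
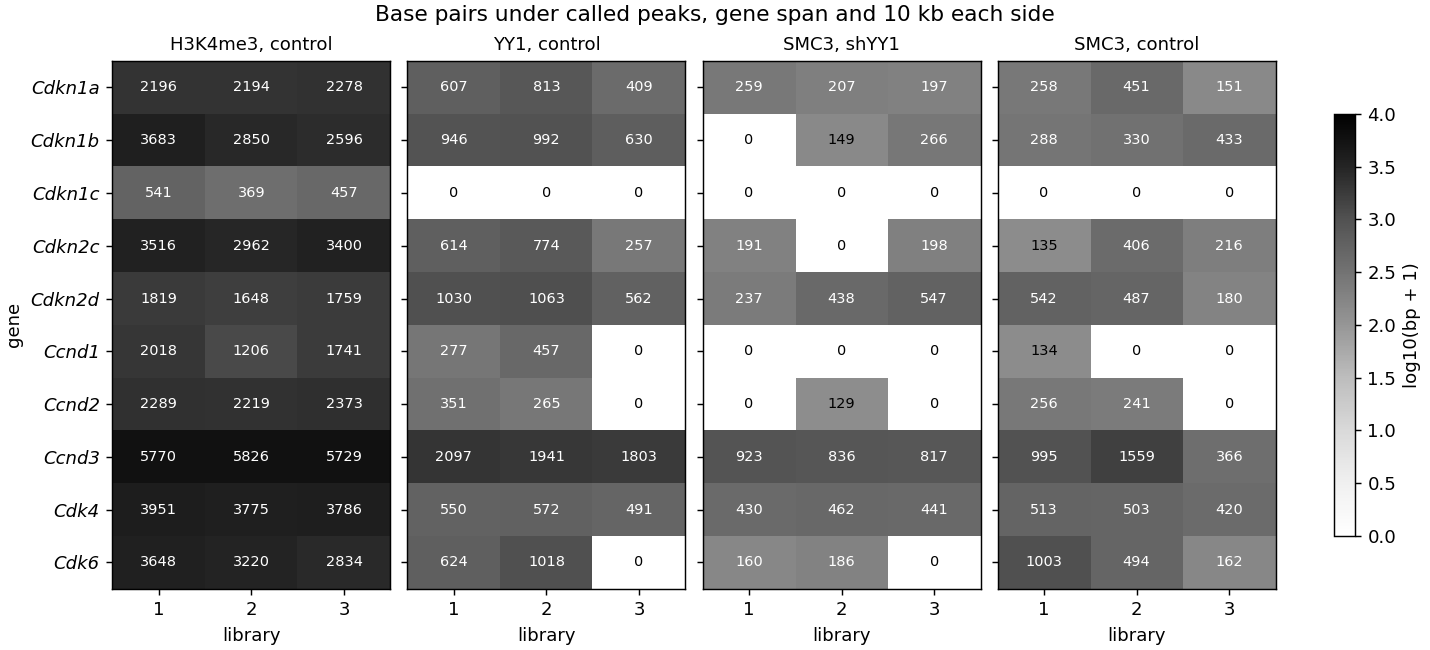
Base pairs under called peaks in the window of each gene (rows) and each library 1 to 3 (columns), for H3K4me3, YY1, SMC3 in shYY1 cells and SMC3 in control cells, with the value written in each cell and the shade giving log10(bp + 1). Every gene has H3K4me3 values above 0, while Cdkn1c is at 0 for the other targets and Cdk4 has SMC3 values from 420 to 513 bp.

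Cdkn1a encodes p21, an inhibitor induced by p53. It had SMC3 peaks in every library, and the region shared by all 6 lay inside the gene, downstream of its promoters. SMC3 peaks covered 259, 207 and 197 bp in shYY1 replicates 1 to 3, and 258, 451 and 151 bp in the control replicates. The control libraries spread more widely, and their range contained every shYY1 value. The shared SMC3 region, chr17:29095333-29095635, had its summit 1726 bp downstream of the inner annotated start, and YY1 had a region there in 3 of 3 libraries at chr17:29095259-29095665. A second YY1 region, chr17:29093540-29093990, lay on the printed promoter in 3 of 3 libraries with its summit at +15 bp. There SMC3 was called only in control replicate 2. The YY1 peaks of the window covered 607, 813 and 409 bp. H3K4me3 covered 2196, 2194 and 2278 bp, within 1 merged region that ran from the inner promoter to the SMC3 site, chr17:29093513-29095790, and no target had a peak on the outer annotated promoter, chr17:29090729-29091028.

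Cdkn1b encodes p27, which holds cyclin and kinase complexes inactive in resting cells. It was the member whose SMC3 coverage did not overlap between the arms. SMC3 peaks covered 0, 149 and 266 bp in shYY1 replicates 1 to 3, and 288, 330 and 433 bp in the control replicates. All 3 shYY1 values lay below all 3 control values, with shYY1 replicate 1 at 0. Most of this coverage lay 8 kb away from the Cdkn1b promoter, in chr6:134928493-134928822, whose summit was at -413 bp from the start of the noncoding RNA gene Lockd. That region had a peak in 2 of 3 shYY1 libraries (149 and 130 bp) and in 3 of 3 control libraries (288, 330 and 205 bp). By the Cdkn1b promoter, at chr6:134920431-134920660, SMC3 was called in 1 shYY1 and 1 control library, both replicate 3. The control peak, chr6:134920431-134920658, reached into the printed promoter. The shYY1 peak, chr6:134920525-134920660, lay downstream of it. YY1 peaks covered 946, 992 and 630 bp in the window. They stood at both places in 3 of 3 libraries, on the promoter at chr6:134920207-134920724 with the summit 149 bp downstream of the start, and upstream of Lockd at chr6:134928354-134928837. H3K4me3 covered 3683, 2850 and 2596 bp in 3 regions, which included both sites.

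Cdkn1c encodes p57, the imprinted inhibitor linked to blood stem cell quiescence. Its window had H3K4me3 peaks alone, of 541, 369 and 457 bp, the lowest H3K4me3 coverage among the 10 genes in each library. They formed 1 region, chr7:143461271-143461895. YY1 and SMC3 peaks covered 0 bp in every library of every group.

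Cdkn2c encodes the INK4 protein p18, whose loss expands blood stem cells in mice. SMC3 peaks covered 191, 0 and 198 bp in shYY1 replicates 1 to 3, and 135, 406 and 216 bp in the control replicates, so the arms overlapped. The promoter region of SMC3, chr4:109666857-109667124, was called in 1 of 3 shYY1 libraries and 3 of 3 control libraries, and YY1 lay there in 2 of 3 libraries at chr4:109666857-109667139. The other SMC3 region, chr4:109676373-109676578, lay by the neighbouring gene Faf1 and was called in 1 library of each arm. YY1 covered 614, 774 and 257 bp in the window, and its region in 3 of 3 libraries was the one by Faf1, chr4:109676266-109676826. H3K4me3 covered 3516, 2962 and 3400 bp. A second annotated Cdkn2c start had H3K4me3 in 3 of 3 libraries and no YY1 or SMC3 peak.

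Cdkn2d encodes the INK4 protein p19. Its promoter carried all 3 targets in every library. SMC3 peaks in the window covered 237, 438 and 547 bp in shYY1 replicates 1 to 3, and 542, 487 and 180 bp in the control replicates. Both arms covered nearly the same range. The promoter region, chr9:21291141-21291509, had SMC3 peaks of 237, 308 and 349 bp in shYY1 cells and of 351, 325 and 180 bp in control cells. Its summit lay at -62 bp from the start, among the GC boxes of the printed sequence, and that of the YY1 region chr9:21290972-21291583 at -60 bp. YY1 covered 1030, 1063 and 562 bp and H3K4me3 1819, 1648 and 1759 bp in the window. A further SMC3 region lay at the promoter of the neighbour Kri1, with its summit at -174 bp from the Kri1 start. This region, chr9:21287990-21288210, was called in 2 of 3 libraries of each arm.

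**Figure D2:**
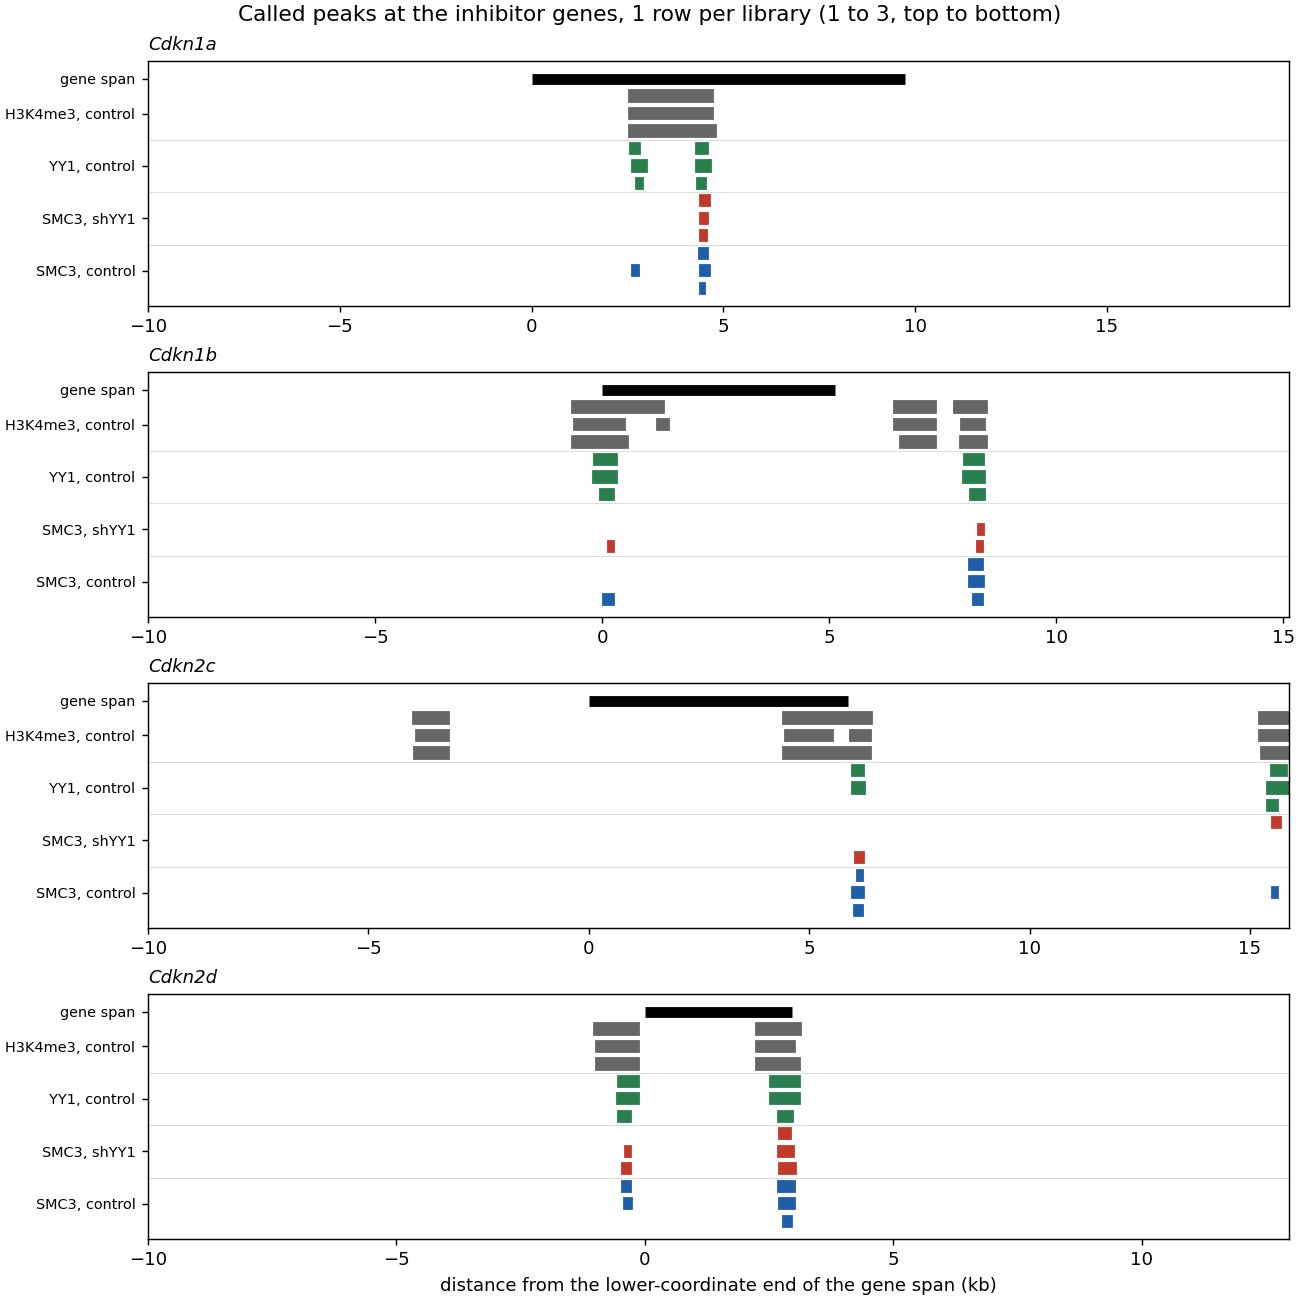
Peaks in the windows of Cdkn1a, Cdkn1b, Cdkn2c and Cdkn2d, drawn against distance in kb from the lower-coordinate end of the gene span, with 1 row per library for SMC3 in shYY1 and control cells, YY1 and H3K4me3. SMC3 in all 6 libraries is seen at Cdkn1a, inside the gene, and at Cdkn2d, on the promoter, while most Cdkn1b SMC3 peaks stand about 8 kb from the start of the span.

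Among the D cyclins, Ccnd1 and Ccnd2 had little SMC3. Ccnd1 had 0 bp in all 3 shYY1 libraries, and 134, 0 and 0 bp in control replicates 1 to 3. Its single SMC3 peak, chr7:144939769-144939902, reached the higher-coordinate end of the gene. YY1 covered 277, 457 and 0 bp there, mainly at chr7:144941366-144941642, and H3K4me3 covered 2018, 1206 and 1741 bp in 3 regions. At Ccnd2, SMC3 covered 0, 129 and 0 bp in shYY1 replicates 1 to 3, and 256, 241 and 0 bp in the control replicates. All 3 peaks fell in chr6:127152349-127152611, within the YY1 region chr6:127152256-127152611, which was called in 2 of 3 libraries. YY1 covered 351, 265 and 0 bp and H3K4me3 2289, 2219 and 2373 bp. YY1 replicate 3, the shortest YY1 list, had no peak at either cyclin.

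Ccnd3 is the D cyclin known for expansion of lymphoid and erythroid precursors. Its window held the widest SMC3 coverage of the 10 genes in every shYY1 library. SMC3 peaks covered 923, 836 and 817 bp in shYY1 replicates 1 to 3, and 995, 1559 and 366 bp in the control replicates. The shYY1 values lay close together inside the wide control range. The region with a peak in all 6 libraries, chr17:47595577-47596046, had its summit 2422 bp downstream of the inner annotated start. Its peaks were 359, 387 and 337 bp long in shYY1 cells and 353, 448 and 366 bp long in control cells, and YY1 lay there in 3 of 3 libraries at chr17:47595577-47596051. On the inner promoter, YY1 was called in 3 of 3 libraries at chr17:47593387-47593760, and SMC3 in no shYY1 library and 1 control library. The outer promoter, chr17:47504801-47505100, had H3K4me3 in 3 of 3 libraries with no YY1 or SMC3 peak.

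The other SMC3 regions of the Ccnd3 window included chr17:47521546-47521897, called in 2 of 3 libraries of each arm and overlapped by YY1 in 3 of 3. A region near Taf8, chr17:47502037-47502434, was called in 3 of 3 shYY1 and 2 of 3 control libraries. One more, chr17:47511184-47511492, was called in 1 shYY1 and 2 control libraries and had YY1 in 1 library only. In all, YY1 covered 2097, 1941 and 1803 bp and H3K4me3 5770, 5826 and 5729 bp, in 8 H3K4me3 regions.

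Cdk4 had the most even SMC3 signal of the 10 genes, with 1 region, on its promoter, in all 6 libraries. SMC3 covered 430, 462 and 441 bp in shYY1 replicates 1 to 3, and 513, 503 and 420 bp in the control replicates. The lowest value was that of control replicate 3, and the other 2 control values were above every shYY1 value. These are long peaks, above 87.5%, 93.9% and 91.7% of the peaks by length in the shYY1 lists and above 94.1%, 94.4% and 87.4% in the control lists. The region, chr10:127063251-127063777, spans the printed promoter with its 4 E boxes, and its summit over the 6 libraries lay at -40.5 bp from the start. YY1 covered 550, 572 and 491 bp in 1 region at the same place, chr10:127063251-127063822. H3K4me3 covered 3951, 3775 and 3786 bp in 3 regions. Those at the neighbours Tspan31 and Agap2 had no YY1 or SMC3 peak.

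Cdk6 had the longest window and the most scattered SMC3 peaks. SMC3 covered 160, 186 and 0 bp in shYY1 replicates 1 to 3, and 1003, 494 and 162 bp in the control replicates. The arms overlapped by a narrow margin, since control replicate 3 lay between the shYY1 values. Of the 7 SMC3 regions, 5 were called in 1 library, all of them control libraries, and 4 of those 5 lay deep inside the gene. The region with the most libraries, chr5:3342587-3343040, was called in 1 shYY1 and 2 control libraries and lay at the 5′ side of the annotated Cdk6 start, with its summit nearest the start of the overlapping gene Gm36470, together with YY1 at chr5:3342627-3342994 in 2 of 3 libraries. YY1 covered 624, 1018 and 0 bp. H3K4me3 covered 3648, 3220 and 2834 bp in 1 merged region, chr5:3341068-3344725. A YY1 region inside the gene, chr5:3497708-3497964, was called in 2 of 3 libraries without H3K4me3, and SMC3 was called there in 1 library of each arm.

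**Figure D3:**
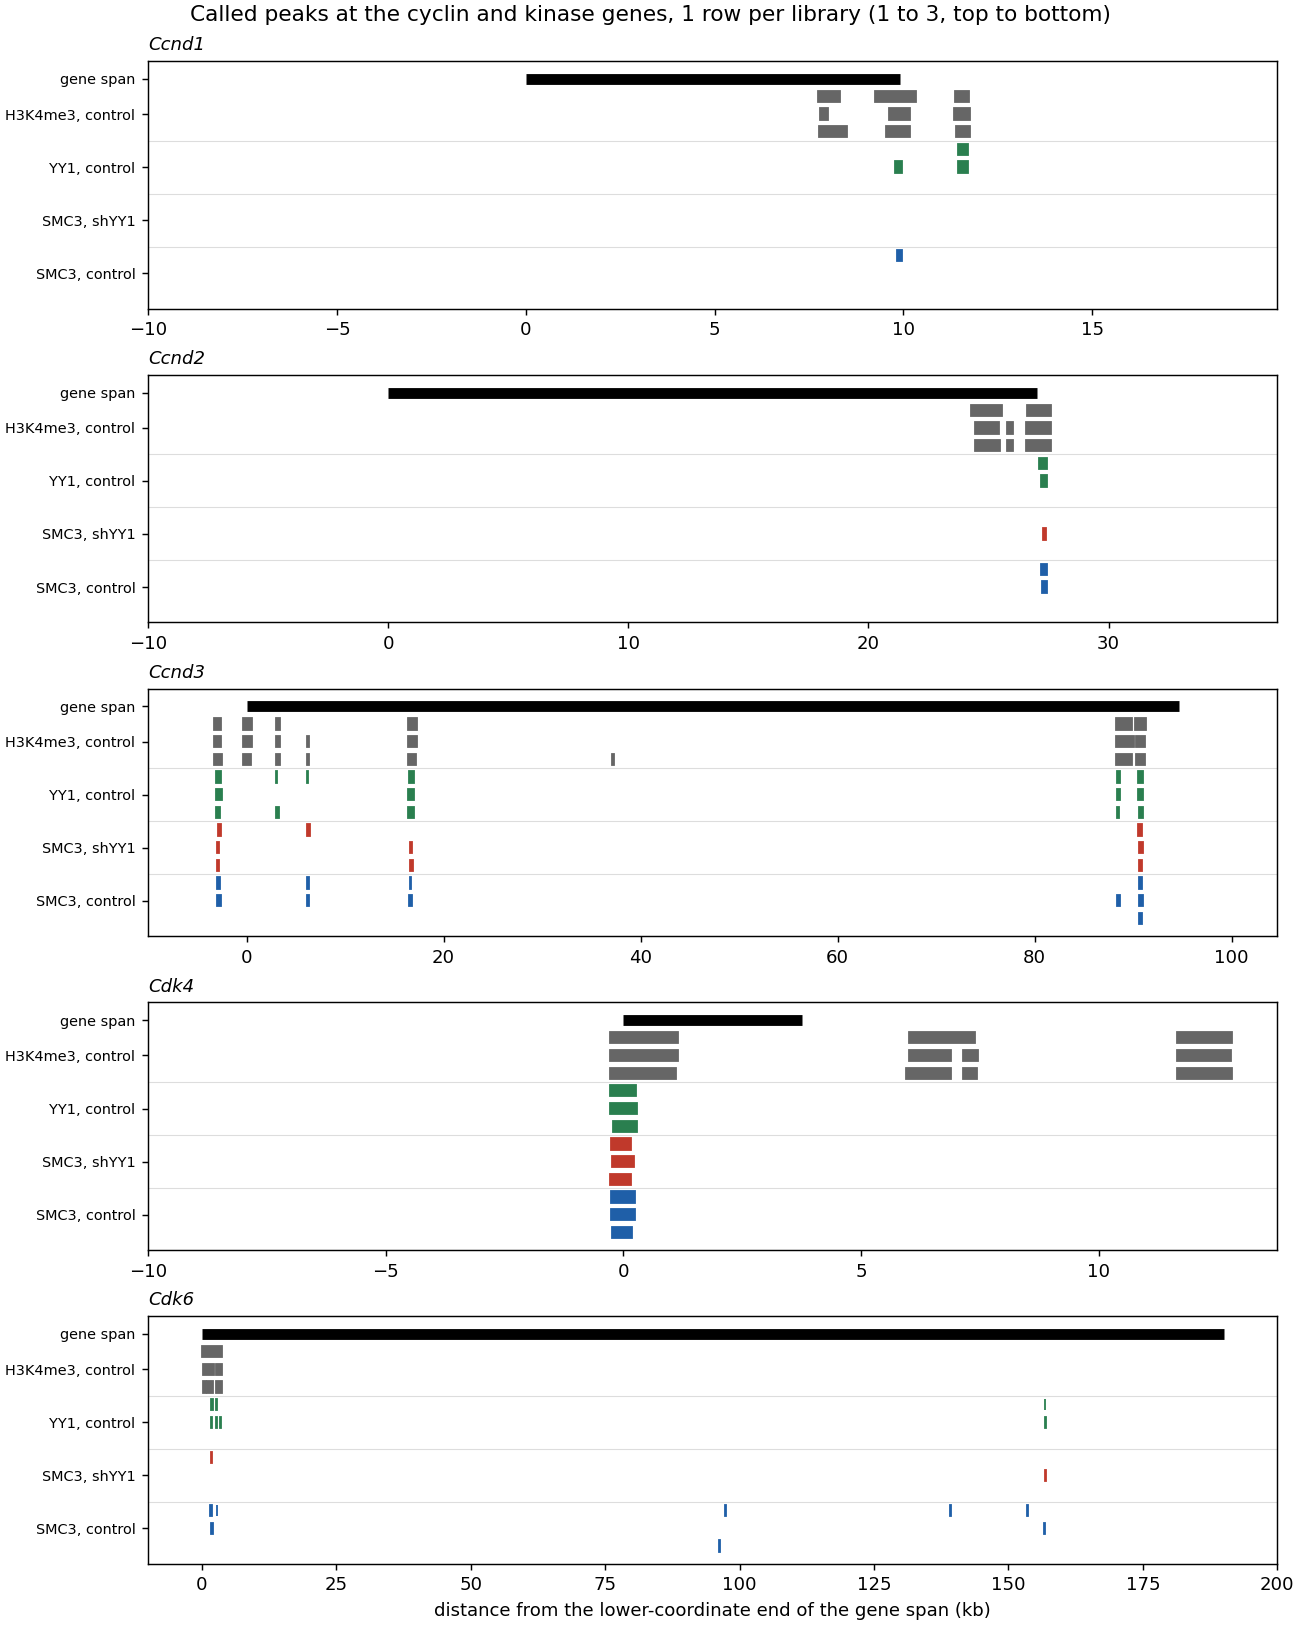
Peaks in the windows of the D cyclins, Cdk4 and Cdk6, drawn against distance in kb from the lower-coordinate end of the gene span, with 1 row per library for SMC3 in shYY1 and control cells, YY1 and H3K4me3. Cdk4 shows 1 SMC3 region in all 6 libraries on the promoter, and Cdk6 shows 7 SMC3 regions, of which 5 belong to 1 library each.

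Reproducible SMC3 regions of the members lay almost entirely on YY1 and H3K4me3 regions. All 8 SMC3 regions of shYY1 cells overlapped a reproducible YY1 region of control cells, as did 95.8% of the 2737 such regions genome-wide. In control cells 11 of 12 did (91.7%), against 94.7% of 3627 genome-wide. The exception was chr17:47511184-47511492 at Ccnd3. Without control SMC3 replicate 1 or replicate 2, the reproducible control regions numbered 6, and 6 of these overlapped YY1. Without YY1 replicate 1 or replicate 2, 8 of 12 did. Without replicate 3 of either target, 11 of 12 did. Read the other way, SMC3 of shYY1 cells lay on 8 of the 19 member YY1 regions (42.1%, against 33.3% of all YY1 regions), and SMC3 of control cells on 11 (57.9%, against 43.7%). Of the 27 member H3K4me3 regions, 16 held YY1 (59.3%, against 43.6% of all), 8 held SMC3 of shYY1 cells (29.6%, against 15.3%) and 12 held SMC3 of control cells (44.4%, against 20.3%). These shares are descriptions, and no test of the members against other genes was made.

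SMC3 and YY1 summits nearly coincided at these genes where their regions overlapped, and distances were taken over such regions only. H3K4me3 summits were not compared in this way. In the region near Taf8 they stood at the same base as the YY1 summits, chr17:47502224, in 3 of 3 libraries, while at the Cdkn2d promoter they did not. The median distance between the SMC3 summit of shYY1 cells and the YY1 summit of control cells was 2.5 bp over 8 member regions, with a maximum of 65 bp, against 27.0 bp over 2622 regions genome-wide. Between SMC3 and YY1 of control cells it was 20 bp over 11 member regions, against 27.5 bp over 3434 regions, and the maximum of 108 bp was at Cdk4. The 11 regions took in those at Cdkn2c, Ccnd2 and Cdk6 (51.5, 50 and 39.5 bp), which were not among the 8. The medians of the arms therefore cover unlike sets of regions. SMC3 summits of shYY1 and control cells lay a median of 20 bp apart over 8 regions, with a maximum of 43 bp, against 22.5 bp over 2484 regions.

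**Figure D4:**
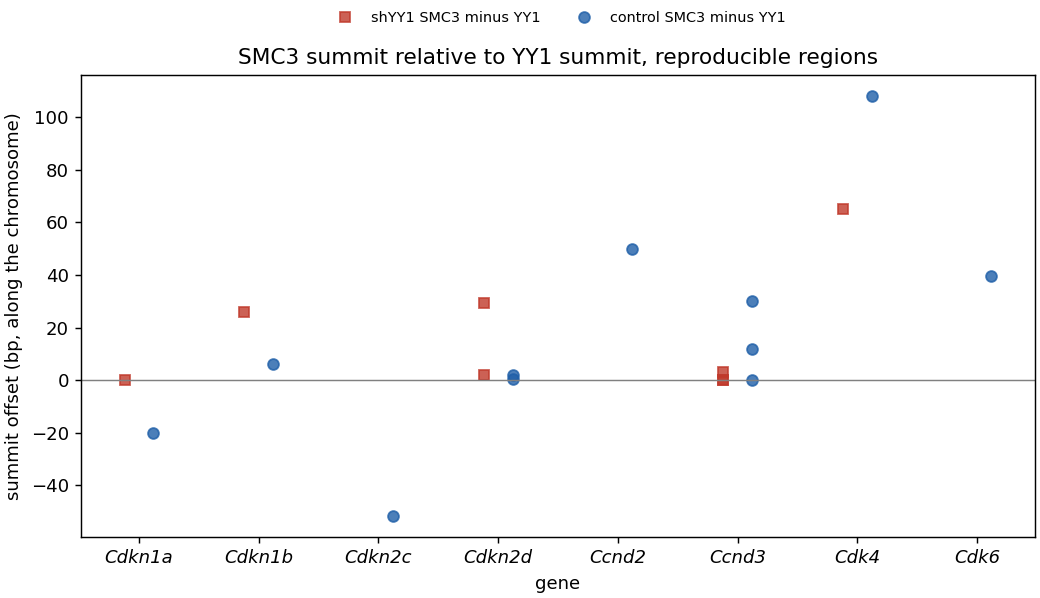
Signed distance in bp along the chromosome, by gene, between the summits of overlapping reproducible regions in the member windows, SMC3 of shYY1 or of control cells minus YY1. Each point is 1 region, and the largest distance is 108 bp, at Cdk4 in control cells.

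The comparison of shYY1 with control cells addressed whether SMC3 changes at these genes when YY1 is knocked down. SMC3 peaks were present in 6, 7 and 6 member windows in shYY1 replicates 1 to 3 (6.33 ± 0.577, SD, n = 3), and in 9, 8 and 7 in the control replicates (8.0 ± 1.0, SD, n = 3). The ranges met at 7 genes. The number of SMC3 peaks in the windows was 8, 10 and 10 in shYY1 cells and 17, 16 and 8 in control cells. Control replicate 3 was as low as the lowest shYY1 library here. Together the peaks covered 2358 ± 140 bp in shYY1 cells and 3508 ± 1380 bp in control cells (SD, n = 3 each). With equal numbers of the longest peaks from each list, coverage was 1953 bp in shYY1 cells and 2465 bp in control cells, so the difference was -512 bp in place of -1150 bp, and the difference in peaks was -1.33 in place of -4.33 per library. Without control replicate 3 these differences were -1940 bp and -7.17 peaks. Without control replicate 1 and without control replicate 2 they were -842 bp with -2.67 peaks and -668 bp with -3.17 peaks. Across the genome, 15.8%, 18.3% and 17.6% of genes had an SMC3 peak in the shYY1 libraries, and 25.1%, 25.5% and 12.4% in the control libraries. The member windows held 0.315 ± 0.0135% of the SMC3 peaks of a list in shYY1 cells and 0.371 ± 0.0207% in control cells (SD, n = 3 each).

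Gene by gene, the mean SMC3 coverage was lower in shYY1 cells at 8 of the 9 members with any SMC3 peak, a direction shared by 74.0% of the 6932 genes tested. The median difference, shYY1 minus control, was -115 bp over the 9 members and -50.0 bp over all genes tested. These differences were not scaled to a gene's control coverage or window length, so the medians do not compare relative loss. The largest was at Cdk6, where coverage was 115 ± 101 bp in shYY1 cells and 553 ± 424 bp in control cells (SD, n = 3 each), a difference of -438 bp with an exact two-sided permutation p of 0.2. At Cdkn1b it was 138 ± 133 bp in shYY1 cells and 350 ± 74.6 bp in control cells (SD, n = 3 each), a difference of -212 bp with an exact permutation p of 0.1. With 20 assignments of the 6 libraries, 0.1 is the smallest p possible, and 0 genes could pass 0.05. After Benjamini-Hochberg adjustment over the 6932 genes every p was 1.

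The other members differed by less, relative to their spread. Cdkn2c averaged 130 ± 112 bp in shYY1 cells and 252 ± 139 bp in control cells, with an exact permutation p of 0.4. Ccnd2 averaged 43.0 ± 74.5 bp in shYY1 cells and 166 ± 144 bp in control cells, also with an exact p of 0.4. Cdk4 averaged 444 ± 16.3 bp in shYY1 cells and 479 ± 51.0 bp in control cells, a difference of -34.3 bp with an exact p of 0.4. Exact p-values were 0.7 for Ccnd3 (859 ± 56.5 bp in shYY1 cells and 973 ± 597 bp in control cells) and 0.7 for Cdkn1a (221 ± 33.3 and 287 ± 152 bp, in the same order). Cdkn2d, at 407 ± 157 bp in shYY1 cells and 403 ± 195 bp in control cells, differed by 4.33 bp with an exact p of 0.9, and Ccnd1 (0 bp in shYY1 cells and 44.7 ± 77.4 bp in control cells) had an exact p of 1. The SDs are over 3 libraries in each arm.

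**Figure D5:**
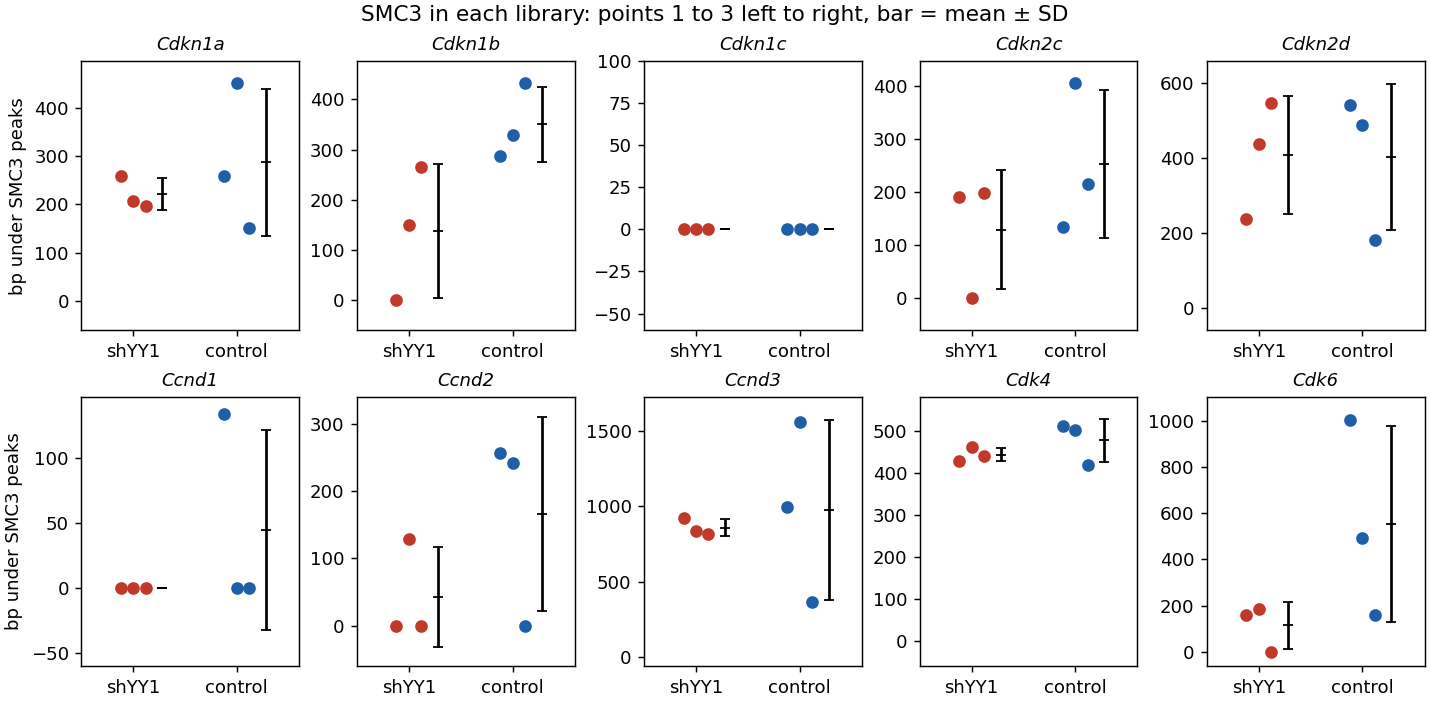
Base pairs under SMC3 peaks per gene window in shYY1 cells (left) and control cells (right), 1 point per library with the group mean and SD. The arms are separate at Cdkn1b alone, where shYY1 libraries reach 266 bp at most and control libraries start at 288 bp.

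Non-overlapping arms, with every shYY1 library below every control library, were found at 1 of the 9 members and at 4.14% of the 6932 genes tested. Every shYY1 library was above every control library at 0 members and at 0.418% of genes. The arms also stayed apart at Cdkn1b with a margin of 5 kb (-212 bp, exact permutation p of 0.1). They overlapped there within the gene span alone, where the difference was -30.7 bp with an exact p of 1. They overlapped too when only peaks above each list's median length were kept, with a difference of -206 bp and an exact p of 0.4. Over all alternatives, p at Cdkn1b ranged between 0.1 and 1. Without control replicate 3, the shortest SMC3 list, the arms did not overlap at Cdkn1b, Ccnd2, Ccnd3, Cdk4 and Cdk6, and 2003 genes genome-wide then showed lower coverage in every shYY1 library. Without shYY1 replicate 1, 2 or 3 that number was 507, 516 or 470, and without control replicate 1 or 2 it was 379 or 407, against 287 with all 6 libraries. Fewer libraries make it easier for arms not to overlap. The arms at Cdk6 were apart without shYY1 replicate 2, and also, with all 6 libraries, when equal numbers of the longest peaks were taken from each list (-248 bp, exact permutation p of 0.1). Those at Cdkn2c were apart without control replicate 1 and without both Abcam libraries. Whether depth or list length accounts for these differences was not tested.

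Reproducible SMC3 regions were also compared between the arms. Of the 12 control regions in member windows, 8 were reproducible in shYY1 cells (66.7%, against 68.3% of 3627 genome-wide). These 8 included the Cdkn1a, Cdkn2d, Ccnd3 and Cdk4 regions described above, and the region upstream of Lockd in the window of Cdkn1b. The 4 that were not lay at the Cdkn2c promoter, at Ccnd2, at chr17:47511184-47511492 in Ccnd3 and on the 5′ side of the Cdk6 start. Each still had a peak in 1 shYY1 library, and the coverage of these genes overlapped between the arms. Merged over all 6 libraries there were 23 SMC3 regions, of which 8 (34.8%, against 29.3% of 6175) came from a single library and 4 (17.4%, against 21.7%) from all 6.

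The wider pathway was read through a list of 62 genes of the cell cycle and its control. The list held cyclins, kinases, inhibitors, retinoblastoma and E2F genes, and others such as Cul1, Fbxw7, Lin52, Trp53, Foxo3 and Gsk3b. Of the 62 genes, 61 were matched. H3K4me3 was reproducible at 59 of them (96.7%, against 57.9% of all genes). Of those 59, YY1 was reproducible at 50 (84.7%, against 69.5% of all genes with H3K4me3), SMC3 of shYY1 cells at 18 (30.5%, against 28.4%) and SMC3 of control cells at 21 (35.6%, against 37.1%). The SMC3 shares were thus near those of all marked genes. SMC3 was called in all 6 SMC3 libraries at 12 of the 61 (19.7%, against 8.68% of all genes, with or without H3K4me3). The matching share of genes with H3K4me3 was not counted, so these 2 shares are not like for like. With YY1 and H3K4me3 also in 3 of 3 libraries, those 12 were Ccna2, Ccng2, Cdk2, E2f3, E2f5, E2f8, Fbxw7, Fzr1, Gsk3b, Hbp1, Lin52 and Rbbp4. Cdk2, the kinase on which Cip/Kip inhibitors chiefly act, had 492, 344 and 474 bp of SMC3 coverage in shYY1 replicates 1 to 3, and 540, 564 and 385 bp in the control replicates, so the arms overlapped. Cdt1, which licenses replication origins, had 234, 0 and 0 bp in shYY1 cells and 252, 314 and 177 bp in control cells, and was the listed gene with a peak in 3 control libraries and 1 shYY1 library. Of the 36 listed genes tested, 27 had a lower mean in shYY1 cells (75.0%, against 74.0% of all genes tested), with a median difference of -42.8 bp, against -50.0 bp. Their arms were separate at 1 gene in the lower direction (2.78%, against 4.14%) and at 0 in the higher. The gene with separate arms, Cks1b, a Cdk-binding protein that helps degrade p27, was picked after its values were seen, and it had 182, 0 and 243 bp in shYY1 cells and 326, 257 and 274 bp in control cells. Also picked after their values were seen were E2f1, Cdkn2a and Cdkn2b. E2f1, an activating E2F factor, had SMC3 peaks in 2 shYY1 libraries and 0 control libraries. Of the INK4 genes outside the 10, Cdkn2a had H3K4me3 peaks alone and Cdkn2b had none of the 3 targets.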

How the data were processed

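The deposited files are the authors' peak lists, 1 per library, with start, end and summit offset in bp and no score or count. The submitters' processing notes list MACS2 2.2.9.1, Bowtie2 2.5.1, cutadapt 4.5 and Picard 3.1.1, with build mm10, while settings and peak thresholds are not stated there. Each deposited list skipped 49 to 99 peak numbers. Starts were read as counted from 0 and are printed counted from 1. Genes and promoters came from RefSeq GRCm38.p6.

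A gene had a peak if at least 1 bp overlapped its span widened by 10 kb, and a call needed at least 2 of 3 libraries. Base pairs under peaks were compared between arms with an exact two-sided permutation test per gene, adjusted by Benjamini-Hochberg over all genes with an SMC3 peak in any library. Peaks were merged into regions when they shared at least 1 bp, and summits of a region were averaged over its libraries by their median. A stricter peak threshold was not possible without scores, so the longer peaks of each list were used in its place. The pathway genes to be named were those with all 3 targets in every library, at most 12, or with SMC3 in 3 libraries of one arm and at most 1 of the other. The members, lists, motif words and tests were chosen with earlier results of these data known. The code, run with Python 3.11.15, numpy 2.4.6, pandas 2.3.3 and scipy 1.17.1, was tested on simulated data.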

Additional observations from a re-analysis of the deposited data

How the results depend on the processing

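Depth is unknown, so the lists' unequal lengths limit every comparison between arms. In 101 of 108 alternative values the difference in SMC3 coverage of a member did not reverse its direction. Differences of 0 bp are among these 101. They occurred at Cdkn2c and Ccnd2 within the gene span, at Ccnd2 with equal numbers of the longest peaks, and at Ccnd1 in several settings. The count did not use p, since this design cannot reach 0.05. The 7 reversals were at Cdkn1a (79.7 bp with equal numbers of the longest peaks, and -134 to 16.5 bp leaving out 1 library), Cdkn2d (-6.33 bp with peaks above the median length, and -107 to 89.5 bp leaving out 1 library) and Ccnd3 (-418 to 178 bp leaving out 1 library). Members with YY1 numbered 6, in place of 9, within the gene span, with peaks above the median length and with 3 of 3 libraries. They also numbered 6 without YY1 replicate 1 or replicate 2. Members with SMC3 in shYY1 cells numbered 3, in place of 7, with peaks above the median length and 4 with 3 of 3 libraries. They numbered 5 within the gene span and without any 1 shYY1 library. Members with SMC3 in control cells numbered 5, in place of 8, within the gene span and 6 with peaks above the median length. The shares of all genes under these alternatives were not counted. Within the gene span, the difference in member windows with SMC3 was -0.667 per library (5.0 in shYY1 and 5.67 in control cells). Without both Abcam libraries it was -1.0, and SMC3 coverage then differed by -763 bp and peaks by -2.0. Genes lower in every shYY1 library numbered 155 within the gene span, 158 with peaks above the median length, 176 with equal numbers of the longest peaks, 605 without both Abcam libraries, and 379 to 2003 leaving out 1 library. Genes higher in every shYY1 library numbered 67 with equal numbers, 359 without both Abcam libraries, and 36 to 150 leaving out 1 library. Control SMC3 regions on YY1 numbered 5 of 6 with 3 of 3 libraries. They numbered 6 of 6, 8 of 12 or 11 of 12 leaving out 1 library, an alternative added after seeing the data. Same-numbered libraries deviated together by r = 0.041, 0.018 and -0.025. These values show no pairing, but they cannot decide whether same-numbered libraries shared a batch. With the replicate block, which takes the same sign in all 3 same-numbered pairs as a call, 662 genes were lower, Cdkn1b and Cdk6 among them, and 122 higher. The causes were not tested.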
